A study of Homo sapiens with 6 samples.

Results

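The genes described here are 9 genes of the pericellular proteolysis system: the plasminogen activators PLAU and PLAT, the receptor PLAUR, the activator inhibitor SERPINE2, the matrix metalloproteinases MMP1 and MMP14, and the tissue inhibitors TIMP1, TIMP2 and TIMP3. They were chosen by name and by what their products do, and all 9 are among the 15651 genes listed, of which 15246 were tested. RNA was sequenced from MDA-MB-231, an established triple-negative breast cancer cell line with mesenchymal features, in 3 libraries from cells given the solvent DMSO and in 3 libraries from cells given BRL-50481. BRL-50481 is an inhibitor of phosphodiesterase 7A (PDE7A), an enzyme that breaks down cyclic AMP. The comparison asks which transcripts change when the cells are given this compound. Whether a change comes from inhibition of PDE7A was not tested. The study's methods and the treatment text give 50 µM for 72 h, while a tag on the treated samples gives 5 µM for 48 h. The labels give no genetic modification in either group, and the data come from 1 cell line and 1 compound at 1 dose.

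Urokinase (uPA, from PLAU) and tissue plasminogen activator (tPA, from PLAT) cut plasminogen to plasmin, a broad serine protease that degrades fibrin and matrix proteins and can activate pro-MMPs. Urokinase is held at the cell surface by its receptor uPAR (from PLAUR), and both activators are inactivated by serpins, among them protease nexin-1 (from SERPINE2). MMP1 is a secreted collagenase that cuts fibrillar collagen, and MMP14 is a membrane-anchored collagenase that also activates pro-MMP2. TIMPs bind the active site of metalloproteinases; TIMP2 also bridges MMP14 to pro-MMP2, and TIMP3 is held in the matrix and inhibits several ADAM and ADAMTS proteases. In breast cancer cells these genes are best known for their part in invasion. The paper reports that BRL-50481 lowered Matrigel invasion and migration of triple-negative breast cancer lines. Those assays were read at earlier times than the 72 h that the treatment text gives for the RNA. Only RNA is described here, and neither protease activity nor invasion was measured in these libraries.

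The libraries held 30750573 to 33446984 reads on genes, and 1 read was worth 0.969 to 1.02 normalized counts. DMSO replicate 1 stood somewhat apart, with a root mean square deviation from its group mean of 0.141 on the log2 scale, against 0.0792 to 0.119 in the other libraries. The mesenchymal markers VIM, CD44, AXL, CAV1, LGALS1 and MSN were all abundant, and their summed normalized count lay between 186775 and 193156 in DMSO and between 243770 and 247297 in BRL-50481. VIM, CD44, AXL, CAV1 and MSN were each higher without overlap. The groups overlapped for LGALS1 (15941 to 17225 after treatment, against 15793 to 19350 in controls). ESR1 was not listed and PGR was at no more than 7.75 normalized counts, while ERBB2 was at 1606 to 1979. The epithelial cadherin gene CDH1 was low, between 31.7 and 48.6 in DMSO and between 93.1 and 105 in BRL-50481, without overlap. The epithelial genes EPCAM (674 to 773), KRT8 and KRT18 (each at 5772 or more) were clearly detected. Genes of the luminal epithelial list each shifted without overlap, in different directions. KRT8 (7608 to 7928 after treatment, against 5772 to 7112 in controls) and GATA3 (250 to 299, against 166 to 228) were higher, like CDH1. EPCAM (674 to 695, against 758 to 773), KRT18 (11820 to 12616, against 13838 to 16072) and FOXA1 (14.5 to 26.2, against 33.3 to 58.5) were lower. The other cell type markers DCN, PTPRC, CD3E, MS4A1 and VWF were not listed. The summed fibroblast list lay between 602 and 656 normalized counts in DMSO and between 732 and 841 in BRL-50481, without overlap. Its members COL1A2 (90.1 to 118 after treatment, against 14.9 to 22.5 in controls) and PDGFRB (301 to 363, against 261 to 270) were higher without overlap. The groups overlapped for COL1A1 (309 to 355 after treatment, against 310 to 363 in controls) and for LUM, which stayed at or below 16.5. The endothelial sum stayed at or below 932 and overlapped between the groups, although its listed members each shifted without overlap, in different directions. KDR was lower after treatment (273 to 339, against 433 to 536 in controls). PECAM1 was higher (460 to 537, against 325 to 396), as was CDH5, which stayed at or below 15.1. The leukocyte sum lay between 3357 and 3801 in DMSO and between 4905 and 5160 in BRL-50481, nearly all of it CD68, a lysosomal protein gene; the part of these markers in the results was not tested.

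Of the 9 genes, 6 were higher after BRL-50481, 1 was lower and 2 did not pass the test, which was limma on log2(normalized count + 1) with Benjamini-Hochberg adjustment over all genes tested and a threshold of 0.05. PLAU, MMP14, TIMP3 and PLAT showed the largest rises, between 0.52 and 0.90 on the log2 scale, and MMP1 fell by 0.33. Change was common in these data: 58.7% of the genes tested were called in either direction, 28.9% were called higher and 29.8% lower, and in 64.2% the DMSO and BRL-50481 libraries did not overlap. The count of 7 called genes out of 9 is thus to be read against a background in which most genes were called. By a two-sided exact permutation test over the libraries, the 7 called genes each had p = 0.1, the smallest that 3 against 3 allows, and TIMP1 and SERPINE2 had p = 0.2 and p = 0.5. The median log2 fold change of the 9 genes was 0.24, compared with 0.015 over all genes tested. Because the libraries are from bulk RNA, fewer cells expressing a gene and less of its RNA per cell cannot be told apart.

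**Figure D1:**
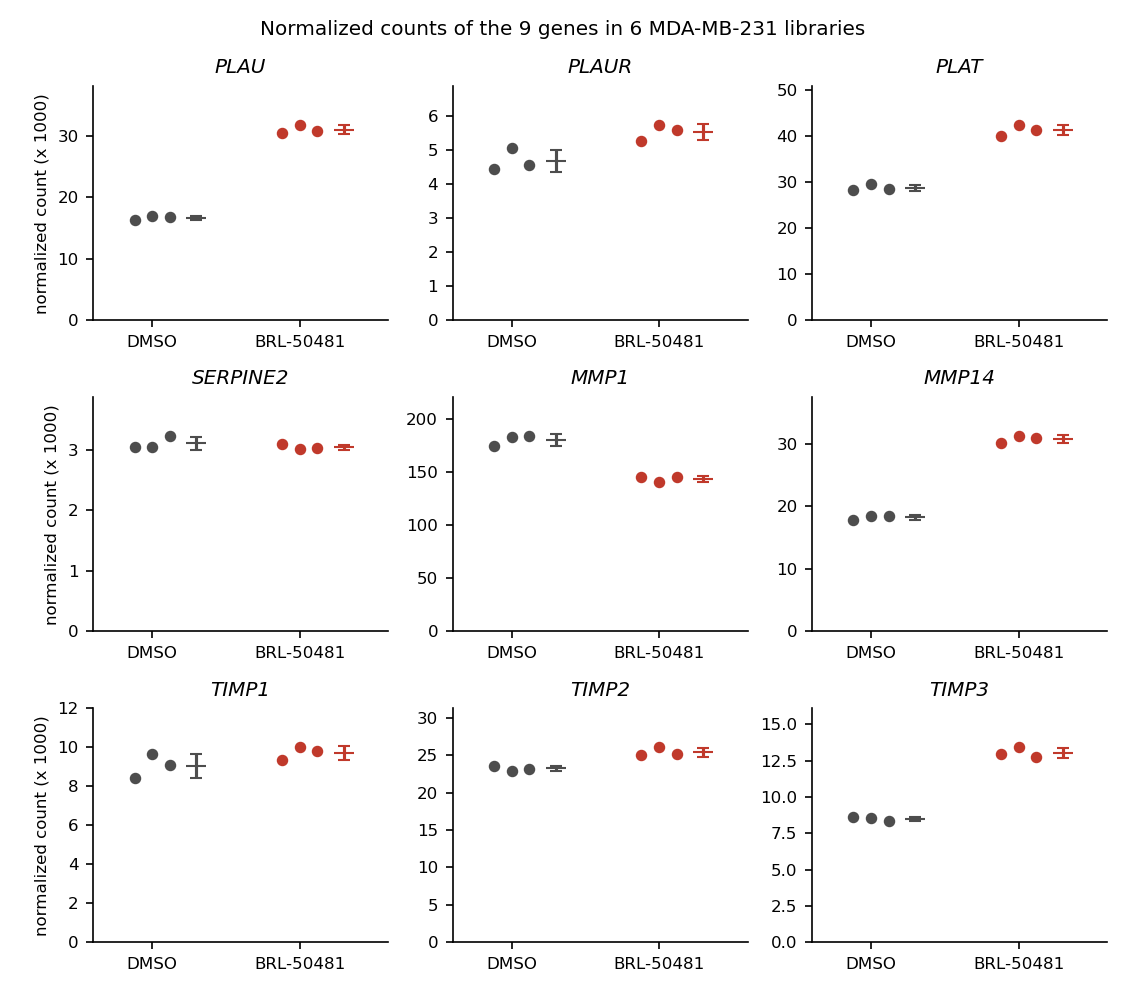
Normalized counts (axis in units of 1000) of each of the 9 genes in the 3 DMSO libraries (grey points) and the 3 BRL-50481 libraries (red points); crosses with bars are means ± SD, and each axis starts at 0. The groups are separate for 7 genes and overlap for SERPINE2 and TIMP1; MMP1 is the gene that lies lower in BRL-50481, a difference that is 0 under quantile normalization.

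Among the plasminogen activators, PLAU (chromosome 10, 73909177 to 73917496, plus strand, hg38) had normalized counts of 16342, 16910 and 16770 in DMSO and 30432, 31768 and 30876 in BRL-50481. Every treated library was far above every control library, and the mean was 1.86-fold higher. On the log2 scale the change was 0.90 (SE 0.042, limma adjusted p = 4.24e-09), higher than the log2 fold change of 92.4% of the genes tested. PLAU moved from rank 256 to 267 among all genes by normalized count in DMSO to rank 78 to 86 in BRL-50481.

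PLAT (chromosome 8, 42174718 to 42207709, minus strand) was at 28401, 29545 and 28527 normalized counts in DMSO and at 40165, 42463 and 41417 in BRL-50481. The groups were again fully separate, with a 1.43-fold higher mean in treated cells. The log2 fold change was 0.52 (SE 0.043, limma adjusted p = 4.83e-07). Both activator transcripts thus rose, and PLAT was the more abundant of the pair in every library, also per transcript length.

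The receptor gene PLAUR (chromosome 19, 43646095 to 43670547, minus strand) had 4451, 5062 and 4558 normalized counts in DMSO and 5271, 5742 and 5603 in BRL-50481. The highest control library was close to the lowest treated one, but the groups did not overlap. Its rise was smaller than that of its ligand gene PLAU, with a 1.18-fold higher mean and a log2 fold change of 0.24 (SE 0.058, limma adjusted p = 0.00299).

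SERPINE2 (chromosome 2, 223975045 to 224039318, minus strand), which encodes protease nexin-1, was at 3042, 3054 and 3229 normalized counts in DMSO and at 3096, 3019 and 3027 in BRL-50481. The groups overlapped. The log2 difference was -0.028 (95% confidence interval -0.14 to 0.080, limma adjusted p = 0.649), and the sign of the estimate turned under 2 other scalings, quantile normalization and median centring.

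MMP1 (chromosome 11, 102789401 to 102798160, minus strand) was the second most abundant transcript in every library by normalized count, behind EEF1A1. It had 174432, 183092 and 184151 normalized counts in DMSO and 145766, 140641 and 145178 in BRL-50481. All treated libraries lay below all controls, and it took between 0.536 and 0.564% of the reads on genes in DMSO and between 0.454 and 0.471% in BRL-50481. The mean in treated cells was 0.797 times that in controls, and MMP1 fell by 0.33 on the log2 scale (SE 0.044, limma adjusted p = 3.41e-05). Under quantile normalization the difference was 0, because that method gives equal values to a gene that holds the same rank in every library.

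MMP14 (chromosome 14, 22836560 to 22849041, plus strand) went the other way. It had 17807, 18540 and 18448 normalized counts in DMSO and 30134, 31253 and 30927 in BRL-50481, with a wide gap between the groups. The mean was 1.68-fold higher in treated cells, with a log2 fold change of 0.75 (SE 0.042, limma adjusted p = 1.80e-08) that exceeded that of 89.4% of the genes tested.

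The 3 TIMP genes differed from one another. TIMP3 (chromosome 22, 32801705 to 32863041, plus strand) was at 8634, 8533 and 8332 normalized counts in DMSO and at 12945, 13445 and 12784 in BRL-50481. The groups were separate and the mean was 1.54-fold higher, with a log2 fold change of 0.62 (SE 0.044, limma adjusted p = 1.23e-07).

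TIMP2 (chromosome 17, 78852977 to 78925387, minus strand) had 23554, 22918 and 23181 normalized counts in DMSO and 25020, 26063 and 25081 in BRL-50481. The groups did not overlap, but the treated mean was only 1.09-fold higher. The log2 fold change was 0.13 (SE 0.042, limma adjusted p = 0.0182), and this call depended on single libraries. The adjusted p was 0.0700 without DMSO replicate 3, 0.0898 without BRL-50481 replicate 2, 0.0577 without BRL-50481 replicate 3, and 0.0554 when limma was run without a mean-variance trend. The log2 fold change itself ranged from 0.084 with a length and GC correction to 0.24 with quantile normalization. An exon of TIMP2 overlaps CEP295NL on the same strand, and CEP295NL itself was listed at only 4.85 to 14.9 normalized counts. Reads shared by both genes cannot be assigned to either one.

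TIMP1 (chromosome X, 47582408 to 47586789, plus strand) had 8434, 9667 and 9101 normalized counts in DMSO and 9340, 10019 and 9801 in BRL-50481. The groups overlapped and the log2 difference of 0.10 (95% confidence interval -0.017 to 0.22) did not pass the test (limma adjusted p = 0.129). It passed without DMSO replicate 2 (0.15, adjusted p = 0.0272) and after a correction for transcript length and GC content (0.19, adjusted p = 5.59e-05), and was 0.051 without DMSO replicate 1. With a canonical transcript of 769 bases, TIMP1 is the shortest of the 9.

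**Figure D2:**
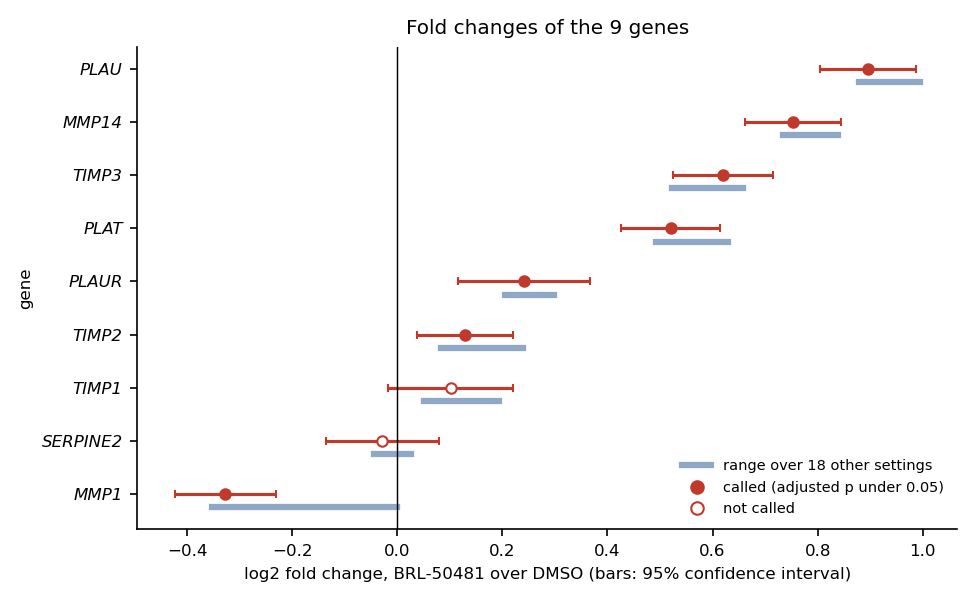
Log2 fold change of BRL-50481 over DMSO for the 9 genes, ordered by size, with 95% confidence intervals (red) and the lowest to highest value over 18 other settings (blue bars). PLAU, MMP14, TIMP3, PLAT, PLAUR and TIMP2 lie above 0 throughout, although TIMP2 is not called in 4 of the other settings. The bar of MMP1 reaches 0 at quantile normalization and that of SERPINE2 crosses 0.

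Levels were compared between genes per kb of canonical transcript, as mean normalized counts per kb ± SD with n = 3. MMP1 stood at 91607 ± 2705 in DMSO and 72989 ± 1423 in BRL-50481, far above the others in all 6 libraries. In DMSO it was followed by TIMP1 (11791 ± 803), PLAT (9414 ± 205), PLAU (7117 ± 126), TIMP2 (6358 ± 87.5), MMP14 (4935 ± 108), PLAUR (3429 ± 239), TIMP3 (1849 ± 33.5) and SERPINE2 (1396 ± 46.9). This order was the same in the 3 DMSO libraries, and no neighbours in it lay within their spread.

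In BRL-50481 the order per kb was MMP1, PLAT (13504 ± 376), PLAU (13242 ± 290), TIMP1 (12640 ± 451), MMP14 (8314 ± 156), TIMP2 (6952 ± 160), PLAUR (4049 ± 177), TIMP3 (2841 ± 75.0) and SERPINE2 (1369 ± 19.0), again in all 3 libraries. PLAT and PLAU, as well as PLAU and TIMP1, lay within overlapping SDs there, whereas the same genes had been clearly apart in DMSO. MMP14 was below TIMP2 in every DMSO library and above it in every BRL-50481 library. PLAU was likewise below TIMP1 in DMSO and above it in BRL-50481.

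Summed per kb, the activators PLAU and PLAT went from 16530 ± 312 to 26745 ± 661, the 3 TIMPs from 19998 ± 704 to 22432 ± 640, and MMP1 with MMP14 from 96543 ± 2810 to 81304 ± 1303. The MMP sum is dominated by MMP1, so it was lower although MMP14 was higher. Over all 9 genes the sum per kb was 137896 ± 3852 in DMSO and 135899 ± 655 in BRL-50481, which overlapped. Their summed normalized count lay between 285098 and 297323 in DMSO and between 302168 and 304695 in BRL-50481. As a share of all reads on genes, the 9 took between 0.876 and 0.907% in DMSO and between 0.976 and 0.982% in BRL-50481. This share also moves with the total normalized count of a library, by which it is divided.

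**Figure D3:**
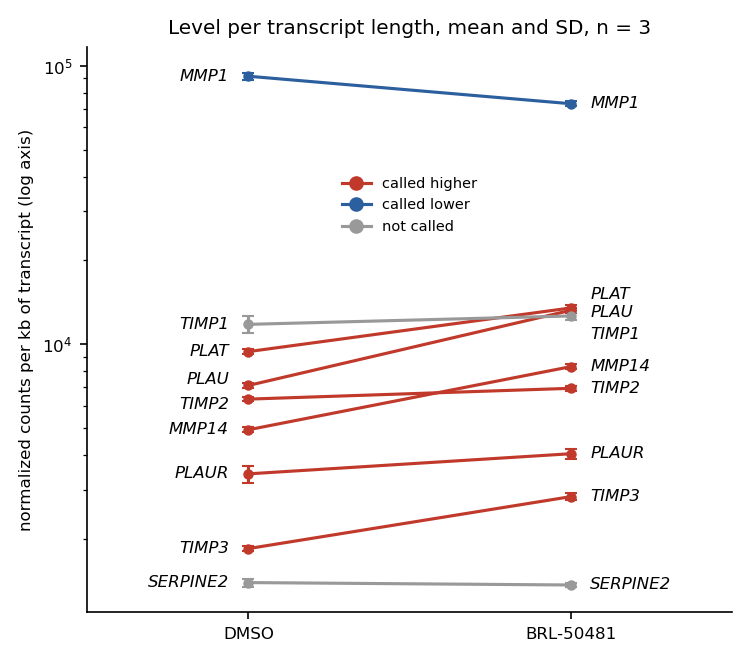
Normalized counts per kb of canonical transcript for the 9 genes (log axis), as mean ± SD of 3 libraries in DMSO (left) and BRL-50481 (right), coloured by call. PLAT and PLAU rise to and slightly above TIMP1, and MMP14 crosses above TIMP2; MMP1, called lower except under quantile normalization, stays at the top.

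Ratios within a library do not depend on the scaling between libraries, and pairs whose products bind each other were compared on the log2 scale of normalized counts. Of 8 pairs tested, 6 are described here. With 3 libraries against 3, the two-sided exact permutation test cannot give less than p = 0.1. All 8 pairs reached it, with adjusted p = 0.1 over the 8 pairs, so none passed the threshold of 0.05, although in each pair the 2 groups were fully separate.

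Against SERPINE2, the PLAU ratio was 2.42, 2.47 and 2.38 in DMSO and 3.30, 3.40 and 3.35 in BRL-50481. Libraries of a group lay close together, and the ratio went from a mean of 2.42 to 3.35 (difference 0.92, SE 0.039) and the PLAT ratio from 3.21 to 3.76 (difference 0.55, SE 0.051). The ligand to receptor ratio PLAU to PLAUR was 1.88, 1.74 and 1.88 in DMSO and 2.53, 2.47 and 2.46 in BRL-50481, a difference of 0.65 (SE 0.051).

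The MMP1 to TIMP1 ratio was 4.37, 4.24 and 4.34 in DMSO and 3.96, 3.81 and 3.89 in BRL-50481, and fell by 0.43 (SE 0.058). The MMP14 to TIMP2 ratio had the opposite direction. It was -0.40, -0.31 and -0.33 in DMSO and 0.27, 0.26 and 0.30 in BRL-50481, so it was negative in every DMSO library and positive in every BRL-50481 library, with a difference of 0.62 (SE 0.032). MMP14 and TIMP3, which both rose, showed the smallest difference of the 6 (mean 1.10 in DMSO and 1.24 in BRL-50481, difference 0.13, SE 0.036). That last difference was 0.21 after the length and GC correction.

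**Figure D4:**
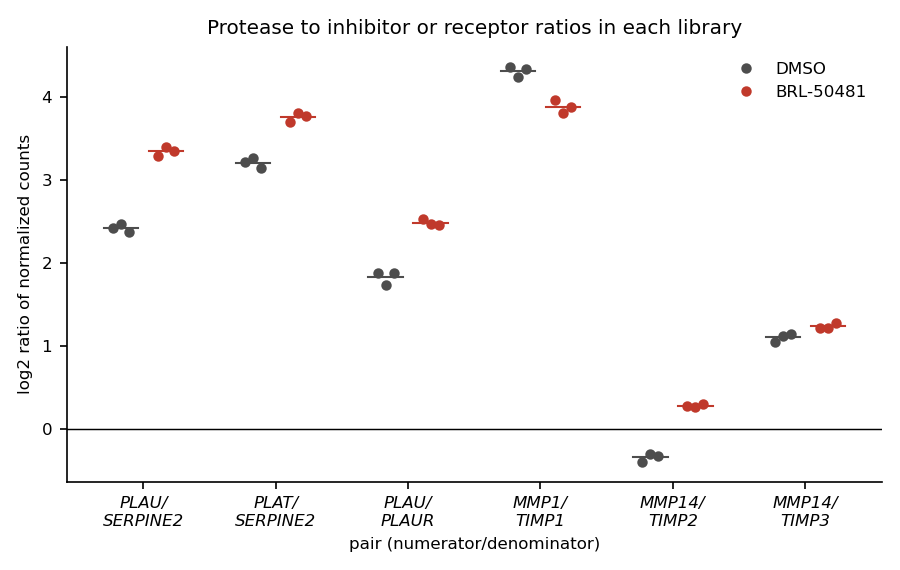
Log2 ratio of normalized counts for 6 protease to inhibitor or ligand to receptor pairs in each DMSO (grey) and BRL-50481 (red) library, with horizontal lines at the group means. In 5 pairs the BRL-50481 libraries lie higher and in the MMP1 to TIMP1 pair they lie lower; the MMP14 to TIMP2 ratio passes from below 0 to above 0.

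Promoter sequence was examined because several of the 9 genes rose together. RefSeq windows (GRCh38.p14) of 250 bases before to 50 bases after a gene start were at hand for 6 genes, in 8 windows; PLAT, MMP1 and TIMP2 had none. The AP-1 element TGANTCA, the CRE TGACGTCA, the shorter CRE motif TGACG, which the full CRE contains, and the ETS core GGAAGT were searched on both strands. They occur in 7.71%, 1.85%, 24.6% and 22.8% of all 35116 RefSeq windows of that length. AP-1, CREB and ETS factors are known regulators of protease genes, and CREB binds the CRE downstream of cyclic AMP.

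The full CRE was in none of the 8 windows. PLAUR held 1 AP-1 element, whose first base is 186 bases before the RefSeq start, and 1 ETS core. This RefSeq start lies inside the annotated gene given above, and the whole part of the window before it is exonic in the GENCODE annotation. The shorter motif TGACG was found once in TIMP1 and once in SERPINE2, and none of the 4 motifs occurred in the windows of PLAU, MMP14 or TIMP3. The stretch around the AP-1 element of PLAUR (chr19:43670338-43670366, minus strand, 29 bases) is shown with the element in capitals.
PLAUR: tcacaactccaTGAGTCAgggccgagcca

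The upstream sequences of PLAU, MMP14 and TIMP3, the 3 genes with the largest rises, are shown over 200 bases outside annotated exons. Capitals mark the GC box GGGCGG on either strand, a motif bound by SP-family factors that was added after the sequences had been seen and occurs in 45.0% of all windows. PLAU has 2 RefSeq starts, and both lie inside the annotated gene given above. The sequence shown belongs to the downstream start (chr10:73910904-73911103, plus strand); MMP14 (chr14:22836360-22836559) and TIMP3 (chr22:32801505-32801704) are also on the plus strand.
PLAU: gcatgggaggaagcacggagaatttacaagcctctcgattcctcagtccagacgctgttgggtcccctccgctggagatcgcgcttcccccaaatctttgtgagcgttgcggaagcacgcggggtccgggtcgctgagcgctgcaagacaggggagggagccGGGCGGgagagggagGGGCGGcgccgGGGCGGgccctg
MMP14: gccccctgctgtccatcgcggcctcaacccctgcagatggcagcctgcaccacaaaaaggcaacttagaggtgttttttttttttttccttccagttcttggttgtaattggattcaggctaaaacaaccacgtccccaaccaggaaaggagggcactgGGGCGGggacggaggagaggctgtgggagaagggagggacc
TIMP3: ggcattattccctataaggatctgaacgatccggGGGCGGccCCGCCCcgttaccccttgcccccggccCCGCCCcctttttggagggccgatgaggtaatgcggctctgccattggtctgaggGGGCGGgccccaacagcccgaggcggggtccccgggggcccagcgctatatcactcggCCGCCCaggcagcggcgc

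PLAU held 3 GC boxes in this stretch, MMP14 held 1 and TIMP3 held 5. The GC box was not particular to genes that rose: it was in 6 of the 8 windows, including those of TIMP1 and SERPINE2, which were not called, and it was absent from the windows of PLAUR and of the upstream PLAU start. A match is a run of letters and does not show that a factor binds there.

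The partners of these genes did not all follow them. In a list of 16 other plasminogen system genes that could be tested, 6 were called higher and 4 lower. The share called was 62.5%, near the 58.7% of all genes tested, and the median log2 fold change was 0.23. SERPINB2, which encodes the urokinase inhibitor PAI-2, showed the largest fall of the list, from 3391, 3408 and 3396 normalized counts in DMSO to 692, 603 and 587 in BRL-50481 (log2 fold change -2.44, SE 0.068, limma adjusted p = 8.11e-11). PLG, the plasminogen gene itself, was not listed.

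At the cell surface, LRP1, the endocytic receptor that clears protease and serpin complexes, rose by 0.66 on the log2 scale (4026, 3226 and 3233 normalized counts in DMSO against 5111, 5842 and 5569 in BRL-50481). VLDLR, a related receptor, fell by 0.60. PLGRKT, a plasminogen receptor, rose by 0.66 and THBD, the thrombin receptor thrombomodulin, by 0.57.

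S100A10, a plasminogen-binding subunit of the annexin A2 tetramer, was higher by 0.17 (limma adjusted p = 0.0201). This call was lost without BRL-50481 replicate 1 (0.0844), without BRL-50481 replicate 3 (0.0749) and without the trend (0.0950). Its partner ANXA2 did not pass (0.11, adjusted p = 0.0542), but passed without DMSO replicate 1 (0.0447) and without DMSO replicate 2 (0.0259), with edgeR (0.0493) and with a filter on the mean count (0.0477). It also passed under median centring (0.0177), quantile normalization (log2 difference 0.28, adjusted p = 3.41e-05) and the length and GC correction (0.000347). ENO1, a glycolytic enzyme that also binds plasminogen, was lower by the main fit (-0.16, adjusted p = 0.0116), not called without BRL-50481 replicate 1 (0.0649) or without the trend (0.0608), and higher under quantile normalization (0.16, adjusted p = 0.00740).

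Of the other MMP genes, 14 could be tested, of which 5 were higher, 3 lower and 6 not called. That share of calls, 57.1%, was near the 58.7% of all genes tested, and the median log2 fold change was 0.15. The gelatinase gene MMP9 had 163, 207 and 187 normalized counts in DMSO and 298, 421 and 303 in BRL-50481, with no overlap (0.86, SE 0.14, limma adjusted p = 0.000153). MMP2, whose proenzyme MMP14 activates, was at only 3.92 to 20.1 normalized counts in the 6 libraries and was not called (0.79, adjusted p = 0.230; 0.0443 without BRL-50481 replicate 1). MMP19 rose by 0.90 and MMP17, a membrane-anchored MMP, fell by 0.59.

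MMP1 lies in a cluster of MMP genes on chromosome 11, and its neighbours were far less abundant. MMP3, the stromelysin gene next to it, had 140, 177 and 160 normalized counts in DMSO and 46.3, 77.6 and 49.4 in BRL-50481, and fell by 1.48 on the log2 scale (limma adjusted p = 2.45e-05). MMP10, on the other side, lay between 147 and 163 in DMSO and between 109 and 135 in BRL-50481, and was lower by 0.34 (adjusted p = 0.0363). The MMP10 call was lost without DMSO replicate 2 (0.0989) or 3 (0.0518), without BRL-50481 replicate 1 (0.136) or 2 (0.0786), under median centring (0.0519) and with DESeq2 (0.0787).

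MMP8, a neutrophil collagenase gene in the same cluster, was at no more than 29.1 normalized counts in any library and was higher by 1.19 (adjusted p = 0.00372), while MMP7 and MMP13 stayed at or below 16.9 and were not called. MMP12, MMP20 and MMP27 were not listed. MMP7, MMP8 and MMP13 were named for their place in the cluster, after their values had been seen.

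Exons of antisense genes overlap 3 of the 9 genes (PLAU, MMP1 and TIMP2) and were counted separately, since the counting used strand; values are given for the 2 antisense genes that are listed. WTAPP1, which overlaps MMP1, was at 110 to 215 normalized counts and did not pass the test (-0.36, limma adjusted p = 0.0858). C10orf55, which overlaps PLAU, lay between 18.6 and 34.7 in DMSO and between 43.6 and 73.5 in BRL-50481 (1.24, adjusted p = 0.00162). Both were chosen for their position, after their values had been seen.

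In the list of other metalloproteinase inhibitors and MMP inducers, 7 of 12 tested genes were higher and 2 lower. These calls made up 75.0% of the list, against 58.7% of all genes tested, and the list's median log2 fold change was 0.40. CD44, a hyaluronan receptor that can anchor MMPs at the surface, rose from 30982, 31805 and 31455 normalized counts to 43482, 43324 and 43852 (0.47, SE 0.041, limma adjusted p = 6.54e-07). SPOCK1, a matrix proteoglycan gene, rose by 1.13 and CLDN1, a tight junction gene, by 0.57. PCOLCE2, an enhancer of procollagen processing, fell by 0.72.

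BSG, which encodes the MMP inducer basigin (EMMPRIN), was lower by 0.22 (adjusted p = 0.00851). It was not called without BRL-50481 replicate 1 (0.0513), without the trend (0.0742) or under quantile normalization (0.196). RECK, a membrane-anchored MMP inhibitor, was not called (0.14, adjusted p = 0.135; 0.0317 without DMSO replicate 1).

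In the ADAM and ADAMTS list, 14 of 21 tested genes were higher and 4 lower, and the median log2 fold change was 0.37. Its share of calls, 85.7%, was the highest among the lists, compared with 58.7% of all genes tested. ADAMTS14, a procollagen N-proteinase, had 243, 244 and 264 normalized counts in DMSO and 731, 790 and 742 in BRL-50481 (1.59, SE 0.081, limma adjusted p = 8.31e-09). ADAM28 rose by 1.19 and ADAMTS12 by 1.15. In the other direction, ADAMTS1, which cleaves aggrecan and versican, went from 6968, 6904 and 6969 to 1698, 1610 and 1668 normalized counts (-2.07, SE 0.048, adjusted p = 1.77e-11).

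ADAM15 fell by 0.41. ADAMTS6 was lower by 0.14 with an adjusted p of 0.0484 that was close to the threshold and lay between 0.0530 and 0.184 without DMSO replicate 1 or 3 or without BRL-50481 replicate 1, 2 or 3, and between 0.0584 and 0.175 under quantile normalization, median centring, DESeq2 and limma without the trend.

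Over all these lists without the 9 genes, together with the serine proteases and cathepsins, 101 genes were tested, of which 46 were higher, 22 lower and 33 not called. The share called was 67.3%, compared with 58.7% of all genes tested, and the median log2 fold change was 0.21.

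**Figure D5:**
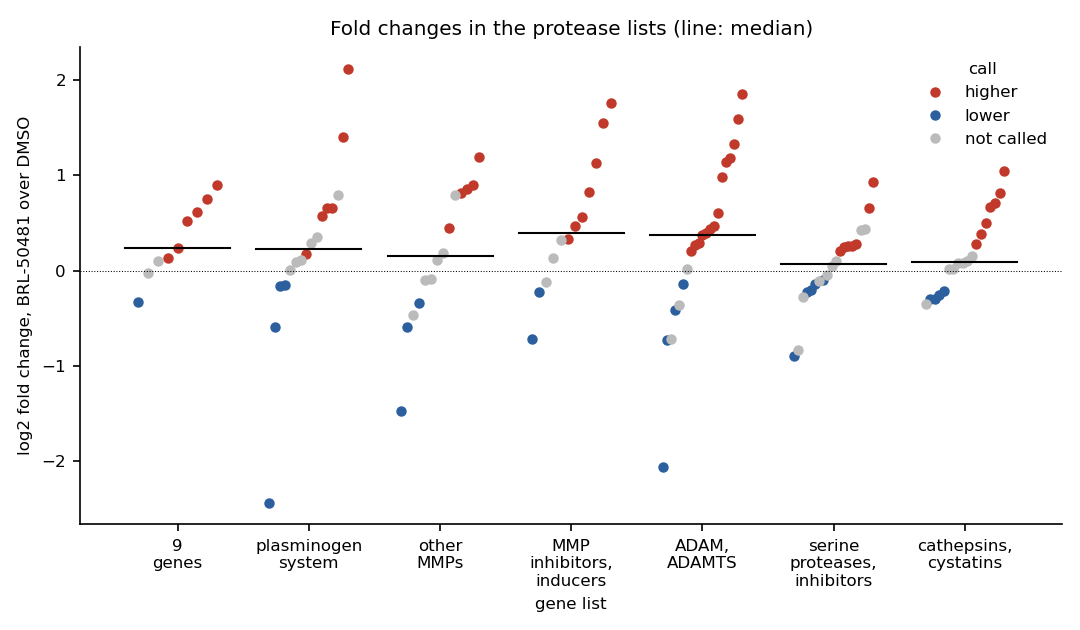
Log2 fold change of every tested gene in the 9 genes and in 6 further lists of proteases and inhibitors, each point a gene, coloured by call (limma adjusted p under 0.05), with a line at the list median. Medians lie between 0.073 and 0.40, and SERPINB2 and ADAMTS1 are the points below -2.

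Across the 6 libraries, the genes whose log2 profile was most like that of PLAU, out of 11455 genes that averaged 100 normalized counts or more, were HBEGF (Pearson r = 0.9998), which encodes a ligand of the EGF receptor, MMP14 (0.9997) and LOXL4 (0.9996), a lysyl oxidase family gene. For MMP1 they were DNAJB11 (0.9998), ZFAS1 (0.9997) and NFKBIB (0.9997). With 3 libraries on each side these values mostly reflect the step between the groups, and 1599 genes had a correlation above 0.95 with PLAU and 2135 with MMP1.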

How the data were processed

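Total RNA of the 6 libraries was sequenced as single-end reads. According to the sources used here, the authors aligned reads to hg38 with STAR 2.7.1a, counted them per UCSC gene with htseq-count using the strand (reverse), and normalized with DESeq2 1.28. The library protocol names mRNA purification while the design text names ribosomal RNA depletion. The deposited signal values are counts divided by size factors; dividing them by what 1 read is worth gave whole numbers throughout (tolerance 1e-06), so reads could be recovered. Of 15651 genes listed, 15246 reached 4 normalized counts in 3 or more libraries and were tested.

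Groups followed the treatment labels. Log2(normalized count + 1) was fitted with limma 3.58.1 (lmFit, eBayes with trend, R 4.3.3), two-sided, with Benjamini-Hochberg adjustment over all genes tested. The study's methods call the libraries biological replicates, but the labels do not say whether they came from separate cultures, so p-values measure the spread between these libraries. Single genes were also compared by exact permutation, which cannot go below p = 0.1. Lengths are of GENCODE 44 canonical transcripts, and 96.7% of genes matched. Alternatives were edgeR 4.0.16, DESeq2 1.42.0, other scalings, filters and pseudocounts, a length and GC correction, a replicate block and leaving out each library. Scripts were tested on simulated data.

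The 9 genes and all lists were chosen with earlier results of these data known. Named genes were the 9, 9 direct partners or relatives (1 is not reported here), up to 3 per direction in each list with the largest called change, a mean of at least 100 and no overlap, and the 3 most like PLAU and MMP1. The deposited columns of the authors' own comparison were not used. Protein sequences were not analysed here.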

Additional observations from a re-analysis of the deposited data

How the results depend on the processing

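PLAU, PLAUR, PLAT, MMP14 and TIMP3 kept their direction and their call under all 18 alternatives. Of 162 values of the 9 genes, 152 kept direction and side of the threshold, 5 lost the call, 3 gained it and 2 changed sign. Under quantile normalization the number of genes called lower among the 9 was 0 in place of 1, since MMP1 holds the same rank in every library. Signs also turned for SERPINE2 (0.027 with quantile normalization, 0.0020 with median centring) and ENO1 (0.16 with quantile normalization). The number called higher was 5 to 7 over all alternatives. The other scalings moved the median of all genes by less than 0.1. Of 683 values of 38 other genes, 642 kept direction and side of the threshold, and all 60 values of the 6 ratios kept their sign.

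Between the groups, same-number correlations of deviations were 0.12, 0.10 and 0.051, and different-number correlations lay between -0.16 and 0.061. Whether libraries with the same replicate number share a batch was not tested. With a replicate block, 6 of the 9 genes were higher and 1 lower, 47 list genes were higher and 22 lower, and 4440 and 4589 genes were called higher and lower over the whole table, compared with 4400 and 4546. The block changed no call of the 9 genes, and ANXA2 passed with it (adjusted p = 0.0482). Depth limits MMP2, MMP7, MMP8 and MMP13, whose normalized counts stayed at or below 29.1.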

Other observations

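Lysosomal and surface proteases outside the MMP and plasminogen systems gave a mixed picture. Of 18 tested cathepsin and cystatin genes, 7 were higher and 4 lower. Calls made up 61.1%, against 58.7% of all genes tested, and the median log2 fold change was 0.093 (limma). The cysteine protease inhibitor genes CST4 (1173, 1397 and 1206 normalized counts in DMSO, compared with 2516, 2631 and 2618 in BRL-50481, log2 fold change 1.04) and CST2 (0.71) rose, as did the cathepsin gene CTSO (0.81). The cathepsin genes CTSL, CTSC and CTSD were lower by 0.30, 0.30 and 0.26. The CTSD call was lost under quantile normalization (adjusted p = 0.350) and without limma's trend (0.0504).

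Of 20 tested cell-surface serine proteases and their inhibitors, 7 were higher and 5 lower. That is 60.0% called, against 58.7% of all genes tested, with a median log2 fold change of 0.073. SERPINB8, an intracellular serpin gene, rose from 582, 603 and 564 to 1095, 1102 and 1145 normalized counts (0.93), and ST14, which encodes matriptase, rose by 0.66 from 148 to 168 in DMSO to 236 to 289 in BRL-50481. HTRA1, a secreted serine protease gene, fell by 0.89, TMPRSS2 by 0.23 and SERPINA1 by 0.20. DPP4 was higher by 0.27 (adjusted p = 0.0220), and not called without DMSO replicate 2 (0.0660), without BRL-50481 replicate 1 (0.0968) under quantile normalization (0.0828) or with a replicate block and the length and GC correction (0.0581).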
